A study of Mus musculus with 8 samples.

Results

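Guanylate-binding proteins (GBPs) are large GTPases whose genes are switched on by interferons. Here the family consists of the 10 genes named Gbp2, Gbp3, Gbp4, Gbp5, Gbp6, Gbp7, Gbp8, Gbp9, Gbp10 and Gbp11, chosen by gene name out of 31406 genes in the deposited table of both treated groups, and all 10 were found there once by identifier. RNA sequencing was performed on primary cultures labelled microglia, the macrophages that live in the brain, grown per the study's methods from the striatum of C57/BL6 pups in their first days of life, from 4 pregnant animals, and labelled wild type. For all 8 libraries the cells grew for 15 days before an activation of 48 h by lipopolysaccharide (LPS, 0.01% v/v) combined with interferon-γ (IFN-γ, 0.002% v/v), and ligands were added 24, 32 and 40 h into the activation. The A2A antagonist group (4 libraries) received SCH 58261, which blocks the adenosine A2A receptor, and the dual group (4 libraries) received SCH 58261 together with 200 nM 2-Cl-IB-MECA, an agonist of the adenosine A3 receptor. There were no cultures without activation, and the methods name the cytokine as human IFN-γ, a protein that binds its receptor in a species-specific way.

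The groups follow the sample titles, which match the column names of the count table. The treatment field of the labels runs the other way, giving the A3 agonist to libraries whose titles have SCH 58261 alone and not to those whose titles have both ligands, so every direction below rests on the titles. The labels do not say whether the replicates came from separate cultures or animals, and p-values therefore measure only the spread between these samples. Library totals were 38427491 to 45878639 counts with the antagonist and 32630602 to 45544451 counts with both ligands, and 18756 genes passed the filter on low counts. The label of the cells was checked against summed marker levels in CPM (counts per 1000000 counts of the library). The 8 microglial markers summed to 966.8 to 1081 CPM over the libraries, led by C1qa and with the homeostatic receptor P2ry12 at only 1.83 CPM, while the 6 astrocyte markers summed to 5771 to 6275 CPM and the 6 fibroblast markers to 2369 to 2986 CPM. The astrocyte sum thus exceeded the microglial sum in every library. The sums are over different genes and are not scaled to gene length, so they cannot rank the cell types. The study's methods describe the cells as nearly pure by CD11b labelling, a measure of cells that RNA sums cannot test. Each level is one over all cells of a culture, and fewer cells of a type cannot be told apart from less RNA per cell.

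GBPs assemble on the vacuoles of intracellular parasites and on bacteria, where they help to break the compartment open and feed bacterial LPS and DNA to inflammasomes. IFN-γ induces them through its receptor, the kinases Jak1 and Jak2, and transcription factors that bind gamma-activated sites (GAS) or, like Irf1, interferon-stimulated response elements (ISRE) in their promoters. The mouse genes lie in a cluster on chromosome 3, here with Gbp2, Gbp3, Gbp5 and Gbp7, and in a cluster on chromosome 5, with Gbp4, Gbp6, Gbp8, Gbp9, Gbp10 and Gbp11. Gbp2 and Gbp5 end in a prenylation signal that anchors them to membranes.

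Promoters are shown for the members that had a RefSeq promoter window, all on chromosome 3, and were searched for the binding letters of these interferon-activated factors. RefSeq promoter windows (GRCm38.p6, 250 bases before to 50 bases after the annotated start) matched 4 of the 10 genes, and Gbp4, Gbp6, Gbp8, Gbp9, Gbp10 and Gbp11 are named only. The 250 bases before the start are printed 5′ to 3′ on the plus strand, with matches to the ISRE letters TTTCNNTTTC or their reverse complement GAAANNGAAA and to the GAS letters TTCNNNGAA, which read the same on both strands, in capitals. The regions are chr3:142620413-142620662 for Gbp2, chr3:142559794-142560043 for the upstream of the 2 start sites of Gbp3, chr3:142496684-142496933 for Gbp5 and chr3:142530086-142530335 for Gbp7.
Gbp2: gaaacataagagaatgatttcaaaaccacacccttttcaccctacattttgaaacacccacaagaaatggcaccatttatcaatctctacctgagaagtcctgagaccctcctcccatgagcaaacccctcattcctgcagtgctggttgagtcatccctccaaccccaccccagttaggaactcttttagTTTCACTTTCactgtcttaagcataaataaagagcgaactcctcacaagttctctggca
Gbp3: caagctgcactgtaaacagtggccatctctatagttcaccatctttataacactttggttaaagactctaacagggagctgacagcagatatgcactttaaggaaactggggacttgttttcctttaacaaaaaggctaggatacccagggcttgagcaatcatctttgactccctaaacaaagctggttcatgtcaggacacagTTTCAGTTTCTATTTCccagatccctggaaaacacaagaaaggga
Gbp5: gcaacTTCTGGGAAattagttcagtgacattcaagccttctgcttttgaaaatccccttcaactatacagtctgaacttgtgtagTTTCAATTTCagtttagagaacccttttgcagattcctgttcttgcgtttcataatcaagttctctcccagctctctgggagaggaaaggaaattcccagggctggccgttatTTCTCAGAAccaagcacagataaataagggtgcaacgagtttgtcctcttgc
Gbp7: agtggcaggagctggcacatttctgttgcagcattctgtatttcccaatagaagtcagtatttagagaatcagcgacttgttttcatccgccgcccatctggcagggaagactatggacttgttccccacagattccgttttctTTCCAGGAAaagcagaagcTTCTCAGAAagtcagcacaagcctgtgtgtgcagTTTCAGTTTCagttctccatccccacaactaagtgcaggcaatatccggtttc

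ISRE letters stood in a window of 4 of these 4 genes, which had 5 windows in all. Counted per window rather than per gene, 3.44% of all 32851 promoter windows held such letters. The ISRE letters lay at -59 to -50 in Gbp2, at -165 to -156 in Gbp5 and at -53 to -44 in Gbp7, counted from the RefSeq start site. The gene models behind the counts start elsewhere. That of Gbp5 starts at 142493978, upstream of the printed window, and those of Gbp2 (142620602) and Gbp3 (142560026) start inside theirs. In Gbp3, matches at -45 to -36 and at -39 to -30 overlapped in a run of TTTC repeats, and the window of the other Gbp3 start site held no match. GAS letters occurred in Gbp5, at -245 to -237 and -52 to -44, and in Gbp7, at -106 to -98 and -87 to -79, and were found in 8.3% of all windows. Both kinds of letters together were held by 0.454% of windows, Gbp5 and Gbp7 among them. Such matches describe the letters and are not evidence of binding.

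**Figure D1:**
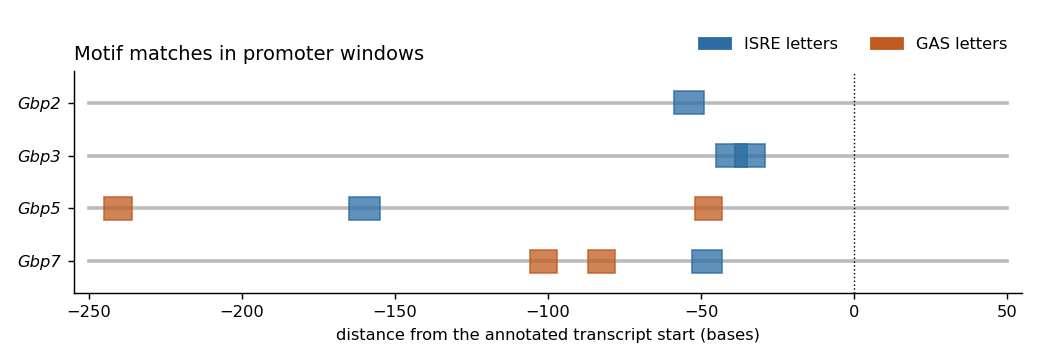
Positions of ISRE letters (blue) and GAS letters (orange) in the RefSeq promoter windows of the 4 chromosome 3 genes, with distance from the annotated transcript start in bases on the x axis and each window drawn as a grey line. Gbp2 and Gbp3 hold ISRE letters alone, while Gbp5 and Gbp7 hold both kinds.

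GBP transcripts were abundant in both groups, with 1091 to 33180 reads per gene and library. Per kilobase of annotated length, the mean level in the A2A antagonist group was highest for Gbp2 at 132.5 ± 3.88 CPM per kilobase (SD, n = 4), followed by Gbp9 at 113.9 ± 3.05, Gbp5 at 108.7 ± 3.38 and Gbp3 at 102.8 ± 3.78. Gbp10 stood between these and the rest at 67.1 ± 2.94 CPM per kilobase. Gbp11 reached 33.5 ± 0.813, Gbp7 29.0 ± 0.610, Gbp6 28.1 ± 2.88 and Gbp4 21.7 ± 0.754 CPM per kilobase, and Gbp8 was lowest at 11.2 ± 1.13. In that group the ranges of Gbp9 and Gbp5, of Gbp5 and Gbp3 and of Gbp7 and Gbp6 overlapped, so these neighbours could not be ordered beyond their spread. The dual group had the same order of means, from 121.6 ± 5.69 CPM per kilobase for Gbp2 to 10.6 ± 0.728 for Gbp8, with overlapping ranges for Gbp2 and Gbp9, Gbp9 and Gbp5, and Gbp7 and Gbp6. The authors' FPKM gave the same rank to 10 of 10 genes, but they rest on the same counts and gene lengths and are no independent check. The median over the genes of the chromosome 3 cluster was 105.7 CPM per kilobase and that over the chromosome 5 cluster was 30.8, both as group means of the A2A antagonist libraries.

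**Figure D2:**
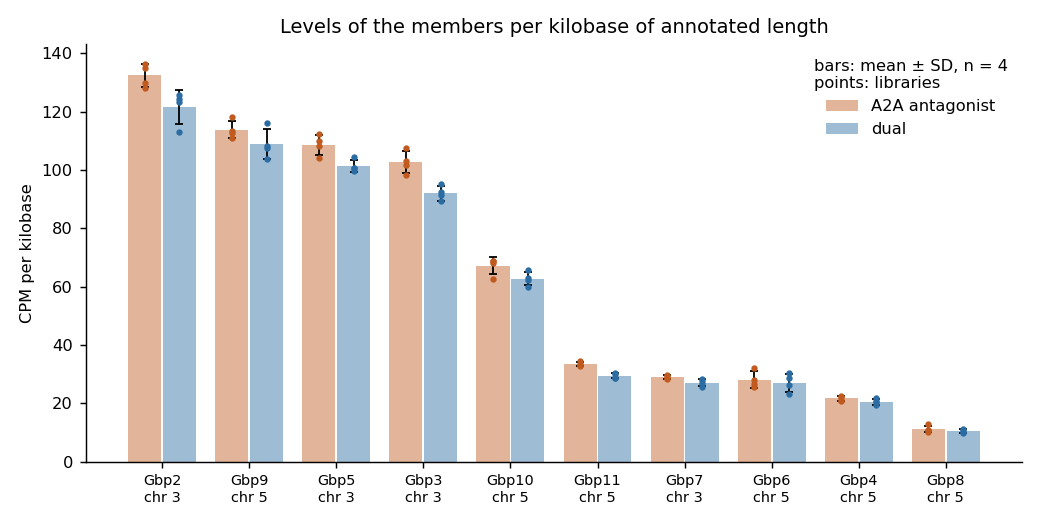
CPM per kilobase of annotated gene length on the y axis for the 10 GBP genes, ordered by their mean in the A2A antagonist group, with bars at the mean of 4 libraries, error bars of 1 SD and points for single libraries. Gbp2, Gbp9, Gbp5 and Gbp3 form the upper end in both groups and Gbp8 is lowest.

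Levels of Gbp6 and Gbp10 are the least certain of the family. Of the 150-base stretches of their transcripts, 59.1% of those of Gbp6 and 66.6% of those of Gbp10 also occur in a transcript of another gene. The gene model Gm43302 alone holds 53.7% and 57.3% of them, and its exons cover 29.0% of the exonic bases of Gbp6 and 46.3% of those of Gbp10 on the same strand. For Gbp7 the shared portion is 8.8%, all with Gm43802, and it is at most 0.1% for the other members. Shorter stretches of 31 bases are shared more widely, at 89.8% for Gbp10, 74.3% for Gbp6, 34.3% for Gbp11, 31.1% for Gbp8, 18.3% for Gbp9, 14.9% for Gbp4 and 14.7% for Gbp7, and at 5.6% or less for Gbp2, Gbp3 and Gbp5. Gbp4, Gbp8 and Gbp9 share up to 61 exonic bases with each other. Gbp11 is annotated as a polymorphic pseudogene, a gene that is intact in some strains and disrupted in others.

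The question of the main comparison is whether adding the A3 receptor agonist to the A2A receptor antagonist altered GBP transcripts in the activated cultures. The fitted level was lower in the dual group for 10 of 10 genes, by 3.61% to 11.8%. By edgeR's quasi-likelihood test with Benjamini-Hochberg adjustment over all genes, 0 of the 10 passed the threshold of 0.05, and 6 had an unadjusted p under 0.05. Over all genes tested, 0.208% passed the adjusted threshold in either direction and 0.160% passed it as lower in the dual group. An unadjusted p under 0.05 with a lower level was found for 6.81% of all genes, and a log2 fold change below 0 for 48.5%. The median log2 fold change was -0.10 over the GBP genes and 0.00 over all genes tested. GBP genes are abundant, and abundant genes have smaller errors. Among the 6691 genes with an average log2 CPM of at least 5, the median was -0.01, 54.1% were lower and 12% were lower with an unadjusted p under 0.05. No GBP gene differed by 1.5-fold or more.

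The groups did not overlap for 4 of the 10 genes, Gbp2, Gbp3, Gbp7 and Gbp11, against 4.06% of all genes tested with such a separation in the lower direction and 7.02% of those 6691 abundant genes. Under scaling by total count alone, Gbp7 overlapped and the number was 3. The choice of test decided which genes passed. DESeq2's Wald test called 4 genes lower, namely Gbp11 with an adjusted p of 0.000512, Gbp3 with 0.000643, Gbp5 with 0.0233 and Gbp2 with 0.0272, where it called 3.36% of the genes to which it gave an adjusted p as lower. edgeR without the filter on low counts called Gbp3 (adjusted p = 0.00411) and Gbp11 (adjusted p = 0.00577), against 0.806% of all genes as lower.

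**Figure D3:**
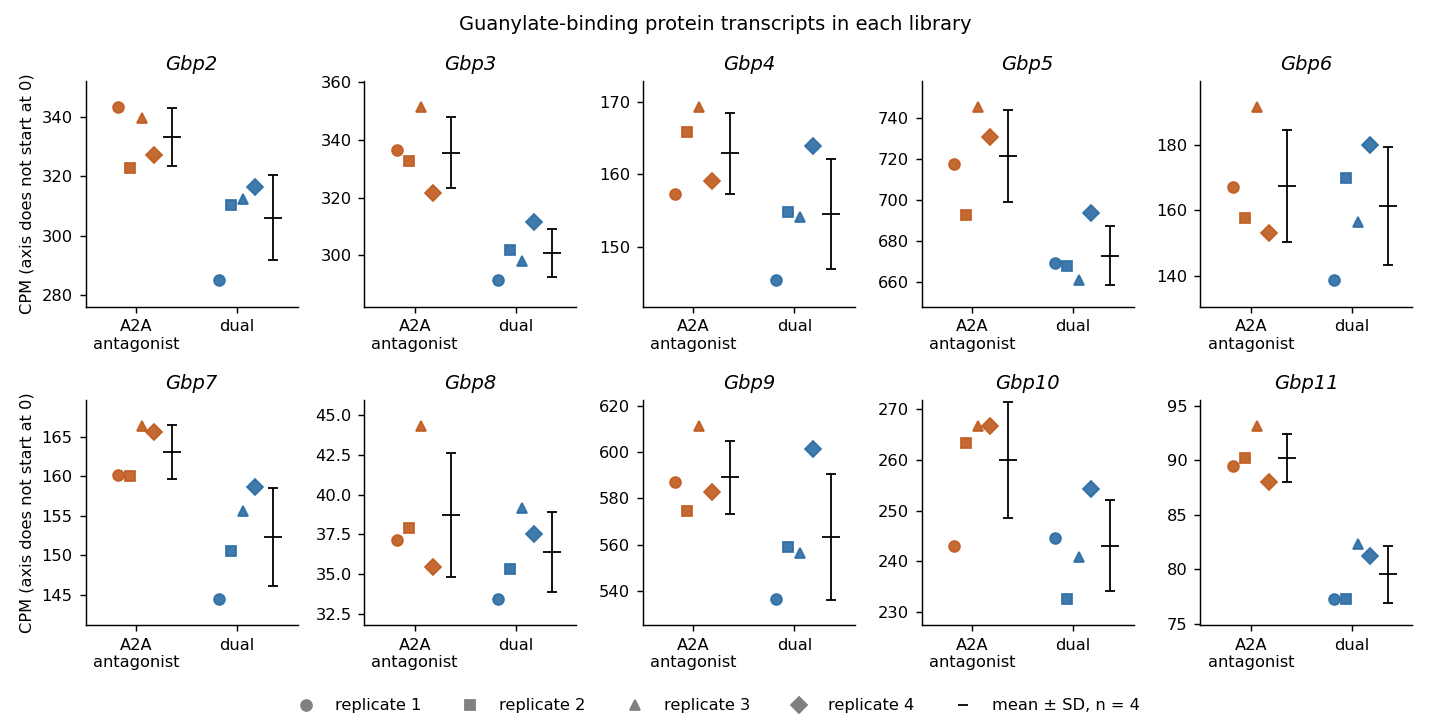
CPM of each GBP gene in the 4 A2A antagonist libraries (orange) and the 4 dual libraries (blue), with the replicate shown by the symbol and the mean ± 1 SD in black. The y axes differ between genes and do not start at 0, and with TMM scaling the 2 groups are fully separate in Gbp2, Gbp3, Gbp7 and Gbp11.

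Of the prenylated members, Gbp2 is recruited to parasite vacuoles and bacteria in mouse cells. Its level was 343.3, 322.9, 339.7 and 327.2 CPM in A2A antagonist replicates 1 to 4 and 284.9, 310.3, 312.5 and 316.4 CPM in dual replicates 1 to 4. Every dual library lay below every A2A antagonist library, with dual replicate 1 far below the rest. The log2 fold change of the dual over the A2A antagonist group was -0.12 (SE 0.04, edgeR adjusted p = 0.153), with a 95% interval from -0.20 to -0.05.

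Gbp5, which promotes inflammasome assembly, had the most reads of the family. Its CPM were 717.4, 692.3, 745.1 and 730.3 with the antagonist and 669.0, 667.7, 660.6 and 693.7 with both ligands. The groups overlapped only because dual replicate 4 exceeded A2A antagonist replicate 2 by a small margin, and the other 3 dual libraries were below all A2A antagonist libraries. The log2 fold change was -0.10 (SE 0.03, edgeR adjusted p = 0.174), with an interval from -0.17 to -0.03.

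Gbp3 and Gbp7 complete the chromosome 3 set, and Gbp7 has been linked to the assembly of the NADPH oxidase. Gbp3 measured 336.6, 332.8, 351.4 and 321.5 CPM in the A2A antagonist group and 291.3, 302.0, 298.2 and 311.4 CPM in the dual group. The lowest antagonist library and the highest dual library were about as far apart as neighbouring libraries within a group. The Gbp3 level was 10.4% lower in the fit, with a log2 fold change of -0.16 (SE 0.03, edgeR adjusted p = 0.0606) and an interval from -0.23 to -0.09. Gbp7 measured 160.2, 160.0, 166.4 and 165.6 CPM against 144.5, 150.5, 155.6 and 158.7 CPM. The Gbp7 groups were separated by a narrow gap between dual replicate 4 and A2A antagonist replicate 2. Its log2 fold change of -0.10 (SE 0.04) had an edgeR adjusted p of 0.244 and an interval from -0.17 to -0.02.

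On chromosome 5, Gbp11 had the largest fold change of the family and the clearest gap. It measured 89.46, 90.23, 93.20 and 88.00 CPM with the antagonist and 77.28, 77.32, 82.33 and 81.25 CPM with both ligands. All dual libraries lay below all A2A antagonist libraries, and the gap exceeded the spread within either group. The level was 11.8% lower, with a log2 fold change of -0.18 (SE 0.04, edgeR adjusted p = 0.0531) and an interval from -0.26 to -0.10.

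Gbp9 was the most highly expressed of the chromosome 5 genes, and the span of Gbp4 overlaps that of Gbp9 on the same strand. Gbp9 measured 587.1, 574.7, 611.4 and 582.9 CPM in the A2A antagonist group and 536.6, 559.0, 556.3 and 601.1 CPM in the dual group. Dual replicate 4 was higher than 3 of the A2A antagonist libraries, while the other 3 dual libraries lay below all of them. Gbp4 measured 157.3, 165.8, 169.3 and 159.1 CPM against 145.3, 154.8, 154.1 and 163.9 CPM, and dual replicate 4 again fell within the antagonist range. The 95% intervals of the log2 fold change contained 0 for both, from -0.14 to 0.01 for Gbp9 and from -0.16 to 0.01 for Gbp4, with edgeR adjusted p of 0.480 and 0.435.

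Gbp10 and Gbp6, which share much of their sequence, behaved differently from library to library. Gbp10 measured 243.1, 263.4, 266.8 and 266.8 CPM in the A2A antagonist group and 244.6, 232.6, 240.9 and 254.3 CPM in the dual group. A2A antagonist replicate 1 stood among the dual libraries and the other 3 above them. The log2 fold change of Gbp10 was -0.10 (SE 0.04, edgeR adjusted p = 0.275), with an interval from -0.18 to -0.02. Gbp6 measured 167.3, 157.8, 191.7 and 153.2 CPM against 138.5, 170.0, 156.5 and 180.2 CPM. The Gbp6 groups were interleaved, with a coefficient of variation of 10.2% and 11.2%, and the log2 fold change of -0.05 (SE 0.07, edgeR adjusted p = 0.808) turned to 0.02 without A2A antagonist replicate 3 and to 0.01 without dual replicate 1. Gbp8, the lowest member, measured 37.12, 37.90, 44.34 and 35.44 CPM against 33.44, 35.35, 39.17 and 37.54 CPM. Its groups overlapped, and its log2 fold change of -0.09 (SE 0.06, edgeR adjusted p = 0.612) had an interval from -0.22 to 0.05. Without A2A antagonist replicate 3 the value for Gbp8 was -0.02, and without dual replicate 1 it was -0.05. The intervals of Gbp4, Gbp6, Gbp8 and Gbp9, which contain 0, ran no higher than 0.09 and no lower than -0.22 on the log2 scale.

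**Figure D4:**
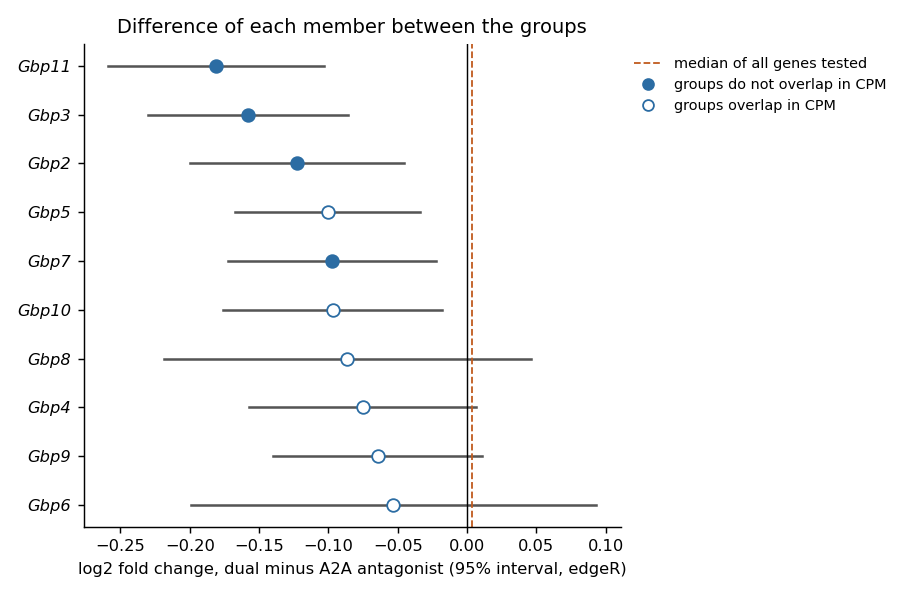
log2 fold change of the dual over the A2A antagonist group for the 10 GBP genes from the edgeR fit, with 95% intervals as lines, filled points where the CPM of the groups did not overlap and a dashed line at the median of all genes tested. All 10 points lie below 0, and the intervals of Gbp4, Gbp6, Gbp8 and Gbp9 cross it.

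The members moved together over the 8 libraries. Pearson's r between the log2 CPM of members had a median of 0.745 over 45 pairs and ran from 0.207 to 0.940, as a description over 8 libraries that include the group difference. The summed CPM of the 10 genes was 2839, 2798, 2979 and 2830 in the A2A antagonist group and 2565, 2660, 2656 and 2799 in the dual group. A2A antagonist replicate 3 was the highest library for 9 of the 10 genes, in a tie for Gbp10, and dual replicate 1, which had the fewest reads at 32630602, was the lowest for 8. The summed level in dual replicate 4 was slightly above that in A2A antagonist replicate 2. Summed microglial markers were 1007 to 1081 CPM in the A2A antagonist group and 966.8 to 1025 CPM in the dual group, a log2 ratio of -0.08 (exact permutation test over 4 against 4 libraries, two-sided p = 0.0571, adjusted p = 0.343 over 6 marker lists, smallest possible p 0.0286). Astrocyte markers summed to 5771 to 6038 CPM against 5824 to 6275 CPM (exact permutation p = 0.371). Neither list had a marker at 0, and their part in the difference of the GBP genes was not tested. The genes whose log2 CPM followed the mean of the GBP genes most closely over the 8 libraries, out of 11052 compared, were Tlr1 (r = 0.962), Scd1 (r = 0.961), AW112010 (r = 0.960), B2m (r = 0.958) and Mro (r = 0.957). None of these passed the edgeR threshold between the groups. Such r are the highest of 11052 over only 8 libraries and include the group difference. How high r would run by chance was not tested.

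Genes that act upstream of GBPs were compared in the same fit. Of 7 interferon receptors and kinases, 0 passed the threshold, with a median log2 fold change of -0.02. The subunit Ifngr1 of the IFN-γ receptor measured 111.3 ± 2.43 and 107.2 ± 2.19 CPM (SD, n = 4 each). Of 11 transcription factors, 0 passed and 8 had a log2 fold change below 0, against 48.5% of all genes tested, with a median of -0.05. Irf1, which binds ISRE, fell short of the threshold with 134.0 ± 4.97 CPM in the A2A antagonist and 119.2 ± 1.87 CPM in the dual group (SD, n = 4 each, log2 fold change -0.17, edgeR adjusted p = 0.0557). Irf7, a factor of the type I interferon response, had a log2 fold change of -0.18 (edgeR adjusted p = 0.114). Of 7 feedback inhibitors, 0 passed, and Usp18, which blocks signalling at the type I interferon receptor, had a log2 fold change of -0.18 (edgeR adjusted p = 0.0532). DESeq2's Wald test called Irf1, Irf7 and Usp18 lower (adjusted p = 0.000440, 0.0171 and 0.000419). So did edgeR without the filter on low counts (adjusted p = 0.00560, 0.00186 and 0.00261) and the main edgeR test when A2A antagonist replicate 1 was left out (adjusted p = 0.0177, 0.0198 and 0.0177). In 10, 10 and 9 of 13 alternatives of test, scaling, filter, block or left-out library they were not called. With a replicate block the edgeR adjusted p was 0.131, 0.194 and 0.0938, and without A2A antagonist replicate 4 it was 0.179, 0.328 and 0.169.

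Among other GTPases of the interferon response, immunity-related GTPases act with GBPs on vacuoles. Of the 7 found in the table, 1 passed the threshold as lower and 7 had an unadjusted p under 0.05 in that direction, with a median log2 fold change of -0.16. Over all genes tested, 0.160% passed as lower and 6.81% had such an unadjusted p, as did 12% of the 6691 abundant genes. The one that passed, Ifi47, measured 116.5 ± 4.52 and 101.8 ± 1.78 CPM (SD, n = 4 each, log2 fold change -0.19, SE 0.04, edgeR adjusted p = 0.0311), and its adjusted p was as high as 0.0937 when single libraries were left out. Igtp had a log2 fold change of -0.16 (edgeR adjusted p = 0.0572). Of 7 other large or dynamin-like GTPases, 0 passed, 4 had a log2 fold change above 0 and 3 below, and the median was 0.07. The largest difference was that of Gvin1, a very large interferon-inducible GTPase, at 0.21 (edgeR adjusted p = 0.564). Gbp2b, the family member on chromosome 3 that is no part of the 10, had a log2 fold change of -0.16 (edgeR adjusted p = 0.205), and Mx2, an antiviral dynamin-like GTPase, one of -0.16 (edgeR adjusted p = 0.112). DESeq2's Wald test called Igtp (adjusted p = 0.000370) and Mx2 (adjusted p = 0.0187) lower, as did edgeR without the filter on low counts (adjusted p = 0.00645 and 0.0254). Igtp stayed uncalled in 9 of the 13 alternatives and Mx2 in 11 of 13.

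Genes that act with or downstream of GBPs gave 0 calls in each list, against 0.208% of all genes tested. A log2 fold change below 0 was found for 48.5% of all genes tested and for 54.1% of the 6691 abundant genes. Of 6 prenylation enzymes, 3 had a log2 fold change below 0 (median -0.01). Of 8 ATG proteins that guide GBPs to vacuoles, 8 were lower with a median of -0.04, among them Gabarap at -0.07 (edgeR adjusted p = 0.338). Of 5 ubiquitin and adaptor proteins, 4 were lower (median -0.06), and Ubb, a ubiquitin precursor, was at -0.09 (edgeR adjusted p = 0.291). Of 8 inflammasome proteins, 6 were lower (median -0.05), with the adaptor Pycard at -0.20 (edgeR adjusted p = 0.288) and Casp4, the mouse caspase that senses cytosolic LPS, at -0.07 (edgeR adjusted p = 0.540).

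The study also compared the A2A antagonist with activated cultures given vehicle. The control libraries are no samples of this series, and only the authors' mean normalized counts of that table were read, for which no error was computed and no test was run. The same A2A antagonist libraries enter both comparisons. Whether control and antagonist libraries were prepared and sequenced together is not given in the sources used here. A difference of preparation therefore cannot be told apart from one of treatment. The authors' mean was higher with the antagonist for 8 of the 10 GBP genes, against 56.9% of the 7656 genes whose means were both at least 1000. It was 31093 with the antagonist and 18274 in control for Gbp5, 25391 and 19091 for Gbp9, 7221 and 4645 for Gbp6, and 11210 and 9240 for Gbp10. The means lay closer together for Gbp2 (14366 and 12730), Gbp3 (14466 and 13349), Gbp7 (7029 and 6261) and Gbp4 (7022 and 6960). They ran the other way for Gbp8, at 1668 with the antagonist and 2268 in control, and for Gbp11, at 3890 and 4141. Side by side, Gbp11 had the largest difference of the family between the dual and the A2A antagonist group and a mean slightly below control with the antagonist alone, while Gbp5 had the widest gap to control and a fitted level 6.72% lower in the dual group.

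**Figure D5:**
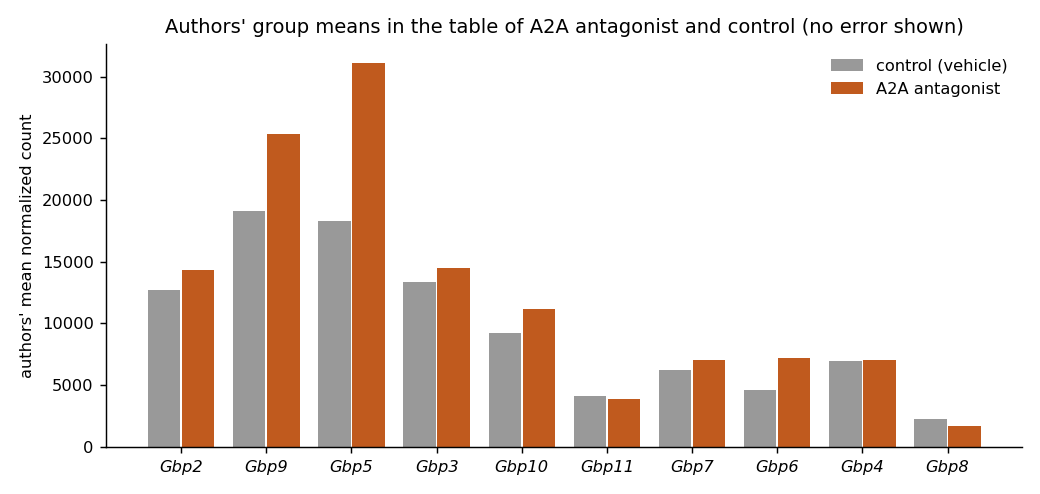
The authors' mean normalized count per gene on the y axis, for control (grey) and the A2A antagonist group (orange), in the order of the level plot and with no error shown, since the control libraries were not used. Gbp5 shows the widest gap between the bars (31093 against 18274), and Gbp8 and Gbp11 are lower with the antagonist.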

How the data were processed

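RNA was sequenced in 8 libraries of activated cultures, 4 per group. Per the study's methods, the authors aligned reads with HISAT2 to a mouse genome (mm10 in the submitters' processing notes) and counted them per gene with featureCounts (1.5.0-p3 there). Whether counting used the strand is not given in the sources used here. The deposited counts are raw and whole, per gene and library, and the deposited FPKM are those of the authors, both without pooling. Each table also holds mean normalized counts (a signal scaled by the authors, pooled per group) and the authors' fold changes and p-values, which were not used, and 9 per-library control columns were not used.

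The quasi-likelihood F test of edgeR 4.0.16 (R 4.3.3) was run on the counts (filterByExpr with a minimum count of 10, TMM scaling, Benjamini-Hochberg adjustment over all genes, threshold 0.05), with dual and A2A antagonist compared over all 8 libraries. The code was tested on simulated data. Libraries and genes were matched by identifier, and coordinates are GRCm38, where 10 of 10 members had the same position in GENCODE M21. CPM are counts per 1000000 of the TMM-scaled total, and shared sequence was counted in words of 150 bases. Alternatives were DESeq2 1.42.0, other scalings, no filter, a replicate block and leaving out each library. Other genes named are, per list, each called gene and up to 3 with the largest change, apart from a gene not reported here. The members and lists were chosen with earlier results of these data known. Counting error alone was 0.549% to 3.03% of a member's count in a library, beside a 5.28% variation between replicates over all genes.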

Additional observations from a re-analysis of the deposited data

Results flagged for a closer look

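Gbp10 in A2A antagonist replicate 1, at 243.1 CPM, stood apart from the other 3 libraries of its group, which lay between 263.4 and 266.8 CPM. The gap took 0.858 of the range of the group and exceeded the critical value of Dixon's test at 95% for 4 samples in 1 of 20 groups of values examined, and chance alone flags about 1 in 20. The other members did not show this: Gbp2 was highest in that library. Part of the reads of Gbp10 cannot be assigned to it with certainty, since 66.6% of its 150-base stretches also occur in another gene.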

How the results depend on the processing

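With 39 genes passing in the main test, 9 higher and 30 lower in the dual group, DESeq2 called 417, edgeR without the filter 366 and edgeR with a replicate block 17, and leaving out single libraries gave 0 to 172. Of the GBP genes, 0 passed in the main test, 4 with DESeq2 and 2 without the filter, and 0 to 2 when a library was left out (1, Gbp11, without A2A antagonist replicate 1, and 2, Gbp3 and Gbp11, without dual replicate 4). Over 13 alternatives 9 to 10 members stayed lower. The log2 fold change of Gbp6 ranged from -0.1108 to 0.0173 over the left-out libraries, with 0.0173 without A2A antagonist replicate 3 and 0.0117 without dual replicate 1, and that of the kinase Tyk2 from -0.0845 to 0.0122, with 0.0122 without dual replicate 4. The causes were not tested.

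Over all genes tested, deviations of same-numbered replicates from their group means had correlations of 0.02, -0.05, 0.04 and -0.01. Genes with low counts weigh as much as others in these correlations, which therefore cannot tell whether the numbers pair the samples. With the replicate block, 0 GBP genes passed. Scaling by total count instead of TMM moved the median of all genes by 0.01 on the log2 scale and kept 10 of 10 GBP genes below 0. Ifi47 missed the threshold in 6 alternatives. Counting error reached 3.03% for Gbp8, whose CPM varied by 10.1% and 6.89% within the groups. For Gbp11 it reached 1.99%, beside a variation of 2.42% and 3.31%. The part of depth in the spread of these members was not tested, and 4 libraries per group limit the precision.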
